A study of Mus musculus with 12 samples.

Results

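The expression of 7 cholesterol synthesis genes was examined in the prefrontal cortex (PFC) of mice after repeated cocaine. The 7 genes, Hmgcs1, Idi1, Fdps, Fdft1, Sqle, Lss and Insig1, were taken by name, from a list written with earlier results of these data known, out of 39929 gene names listed over the deposited tables. The 6 groups were of male C57BL/6 mice (C57BL/6 J in the methods of the study), 10 weeks of age. The mice received saline or 20 mg/kg cocaine by intraperitoneal injection once a day for 14 days, and the PFC was taken at 2 h, 24 h or 7 d of withdrawal. There were 2 RNA-seq libraries per group, each made from the pooled PFC of 5 mice, which gives 12 libraries. The 3 tables, 1 per time point, hold 1 FPKM (fragments mapped to a gene, scaled by transcript length and library size) per gene and group, which the authors pooled over both libraries. The spread between libraries is therefore not known here, and neither is the sequencing depth. No test was run, and every ratio below is given without an error.

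Cholesterol hardly crosses the blood-brain barrier, so the brain makes its own, mostly in astrocytes and, for myelin, in oligodendrocytes. In the mevalonate arm, acetyl-CoA units are built up to farnesyl diphosphate, which is also the branch point to isoprenoids. In the sterol arm, farnesyl diphosphate is turned into squalene, closed into the sterol ring and trimmed to cholesterol. The whole pathway is read out under the transcription factor SREBP2, which Scap carries to the Golgi when sterols are low and which Insig proteins hold back when sterols are high. Of the 7 genes, 6 encode enzymes and 1 (Insig1) encodes that brake, and no receptor for cholesterol uptake is among them. Genes of uptake were looked at in a wider list.

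All 7 genes were expressed in every group, and FPKM, a value per transcript length, allows their levels to be compared. Hmgcs1, the enzyme that condenses acetyl-CoA with acetoacetyl-CoA into HMG-CoA, was the most abundant, between 77.0 and 84.3 FPKM over the 6 groups. Fdps, which makes farnesyl diphosphate, lay between 29.6 and 34.2 FPKM. Fdft1, the squalene synthase that commits farnesyl diphosphate to sterols, lay between 28.7 and 31.5 FPKM. Insig1 lay between 23.2 and 29.5 FPKM. Sqle, the squalene epoxidase and a slow step of the sterol arm, lay between 18.5 and 20.7 FPKM, and Idi1, which isomerizes isopentenyl diphosphate, between 16.8 and 19.9 FPKM. Lss, which closes the sterol ring of lanosterol, was the least abundant, between 3.79 and 4.5 FPKM. The ranges of Hmgcs1 and Lss overlapped with no other gene of the 7. Those of Fdps and Fdft1, of Fdft1 and Insig1, and of Sqle and Idi1 overlapped, so the order within these pairs was not the same in every group. Levels at different time points come from tables that were normalized separately.

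**Figure D1:**
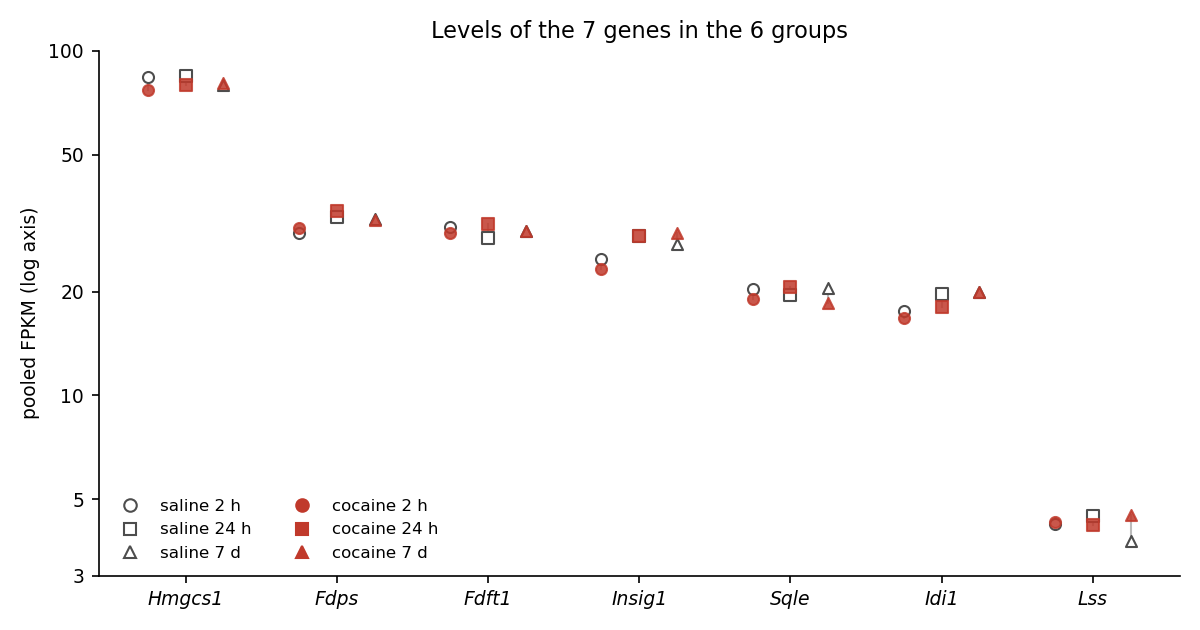
Pooled FPKM (vertical axis, log scale) of the 7 genes in the saline and cocaine groups at 2 h, 24 h and 7 d; each point is 1 pooled group value and there are no error bars. Hmgcs1 is the highest and Lss the lowest in all 6 groups, and the saline and cocaine points of each gene lie close together.

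On GRCm38, Hmgcs1 was listed at chr13:119690360-119708086 and Idi1 at chr13:8885501-8892451. Fdps was listed at chr3:89093592-89101967, a stretch that also holds Gm22935 (listed at 0 FPKM), and Insig1 at chr5:28071363-28078662. Lss was listed at chr10:76531588-76562226, a stretch that also holds 4930483K19Rik. Fdft1 was listed at chr14:63122462-63177793 in a stretch that the table shares with Ctsb. Sqle was listed at chr15:59315057-59601683, a stretch of 286627 bases shared with Nsmce2 and E430025E21Rik, whereas the RefSeq gene is 16102 bases long. The listed stretches of Lss (30639 bases) and Fdft1 (55332) are also longer than their RefSeq genes (25575 and 36538). The library kit does not mark strand, so reads from genes that overlap on opposite strands could not be told apart. The strands of the overlapping genes were not compared here. The levels of Fdps, Lss, Fdft1 and Sqle, whose stretches are shared, are less certain for these reasons.

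RefSeq promoters were matched for 4 of the 7 genes, Hmgcs1, Idi1, Lss and Insig1. They are shown because these genes are known targets of SREBP2 and its partner factors. Each line gives the 250 bases before an annotated start on GRCm38.p6, plus strand, 5′ to 3′. The Lss window reaches past the start of the RefSeq gene at 76531565, so its last bases lie within that gene. Capitals mark a sterol regulatory element core (TCACNCCAC), a CCAAT box (CCAAT) or a GC box (GGGCGG), searched on both strands.
Hmgcs1, chr13:119690101-119690350: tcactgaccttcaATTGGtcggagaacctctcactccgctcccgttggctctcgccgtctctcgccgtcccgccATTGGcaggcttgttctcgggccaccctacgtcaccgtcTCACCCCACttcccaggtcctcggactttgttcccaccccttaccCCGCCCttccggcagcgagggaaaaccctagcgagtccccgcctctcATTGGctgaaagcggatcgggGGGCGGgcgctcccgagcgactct
Idi1, chr13:8885356-8885605: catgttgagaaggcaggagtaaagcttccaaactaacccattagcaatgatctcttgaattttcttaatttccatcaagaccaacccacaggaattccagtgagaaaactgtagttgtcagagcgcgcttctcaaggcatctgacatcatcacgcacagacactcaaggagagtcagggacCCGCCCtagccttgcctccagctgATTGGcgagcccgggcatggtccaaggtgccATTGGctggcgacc
Lss, chr10:76531355-76531604: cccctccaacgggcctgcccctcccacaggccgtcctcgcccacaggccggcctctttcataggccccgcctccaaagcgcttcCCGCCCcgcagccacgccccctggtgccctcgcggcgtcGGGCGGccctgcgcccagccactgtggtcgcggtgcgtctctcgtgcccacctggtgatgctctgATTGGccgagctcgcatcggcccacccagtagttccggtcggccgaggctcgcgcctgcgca
Insig1, chr5:28071162-28071411: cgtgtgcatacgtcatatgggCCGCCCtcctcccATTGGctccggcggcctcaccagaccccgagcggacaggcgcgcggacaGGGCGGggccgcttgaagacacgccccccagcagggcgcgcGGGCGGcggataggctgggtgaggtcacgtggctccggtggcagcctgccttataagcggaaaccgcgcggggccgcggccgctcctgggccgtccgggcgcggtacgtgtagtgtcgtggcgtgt
The sterol element core, as TCACCCCAC 137 bases before the start, was found in Hmgcs1 and in none of the other 3 windows. Of 32851 promoters of the same length, 1.05% held it. All 4 windows held a CCAAT box (3 in Hmgcs1, 2 in Idi1, 1 in Lss and 1 in Insig1), against 33.85% of all promoters. A GC box was in all 4 as well, with 2, 1, 2 and 3 matches in the same order, against 32.74% of all promoters. Over the 7 genes and the wider sterol and lipid lists below, 46 promoters were matched. Of these 46, 1 held the core (that of Hmgcs1), 27 a CCAAT box and 29 a GC box. A match of letters is a description and no binding was measured.

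At 2 h of withdrawal, 5 of the 7 genes were lower in the cocaine group than in the saline group, by small amounts. Hmgcs1 had 84.1 (saline) and 77.0 FPKM (cocaine), a log2 ratio of -0.13. Insig1 was at 24.9 and 23.2 FPKM (-0.11), Sqle at 20.3 and 19.1 (-0.09), Idi1 at 17.6 and 16.8 (-0.07) and Fdft1 at 30.9 and 29.6 (-0.06). Fdps, at 29.6 and 30.6 FPKM, and Lss, at 4.25 and 4.3, were the 2 on the other side, with log2 ratios of 0.05 and 0.02. The median over the 7 was -0.07, while the median of 13359 genes with a mean of at least 1 FPKM was 0.02. The FPKM summed over the 7 genes was 211.7 in saline and 200.5 in cocaine. In bulk tissue, fewer cells of a type and less RNA per cell cannot be told apart.

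At 24 h the 7 genes were split, with 4 at or above and 3 below their saline level. Fdft1 had 28.7 (saline) and 31.5 FPKM (cocaine), a log2 ratio of 0.13. Sqle was at 19.5 and 20.7 FPKM (0.09) and Fdps at 32.9 and 34.2 (0.06). These 3 enzymes act in succession, from the making of farnesyl diphosphate to the epoxide of squalene. The enzymes before and after them lay on the other side: Idi1 was at 19.7 and 18.1 FPKM (-0.12), Hmgcs1 at 84.3 and 79.3 (-0.09) and Lss at 4.48 and 4.22 (-0.08). Insig1 was at 29.0 FPKM in both groups. The median over the 7 was 0.00, against 0.01 over 13565 genes, and their summed FPKM was 218.5 in saline and 217.1 in cocaine.

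At 7 d Hmgcs1, Idi1 and Fdps, the genes of the mevalonate arm among the 7, were almost equal in both groups as deposited. The highest and lowest ratios were those of Lss and Sqle. Hmgcs1 had 79.6 (saline) and 80.8 FPKM (cocaine), a log2 ratio of 0.02. Idi1 was at 19.9 FPKM in both groups, Fdps at 32.4 and 32.2 and Fdft1, at the start of the sterol arm, at 30.0 and 29.9. The log2 ratios of the last 3 lay between -0.01 and -0.002. Lss had 3.79 (saline) and 4.5 FPKM (cocaine), a log2 ratio of 0.24, which was the largest of all 21 values of gene and time point. Sqle, the enzyme just before it, was at 20.5 and 18.5 FPKM, a log2 ratio of -0.15 and the lowest of the 21. Insig1 was at 27.5 and 29.5 FPKM (0.10). The median over the 7 was -0.002, against -0.01 over 13429 genes, and their summed FPKM was 213.7 and 215.3.

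**Figure D2:**
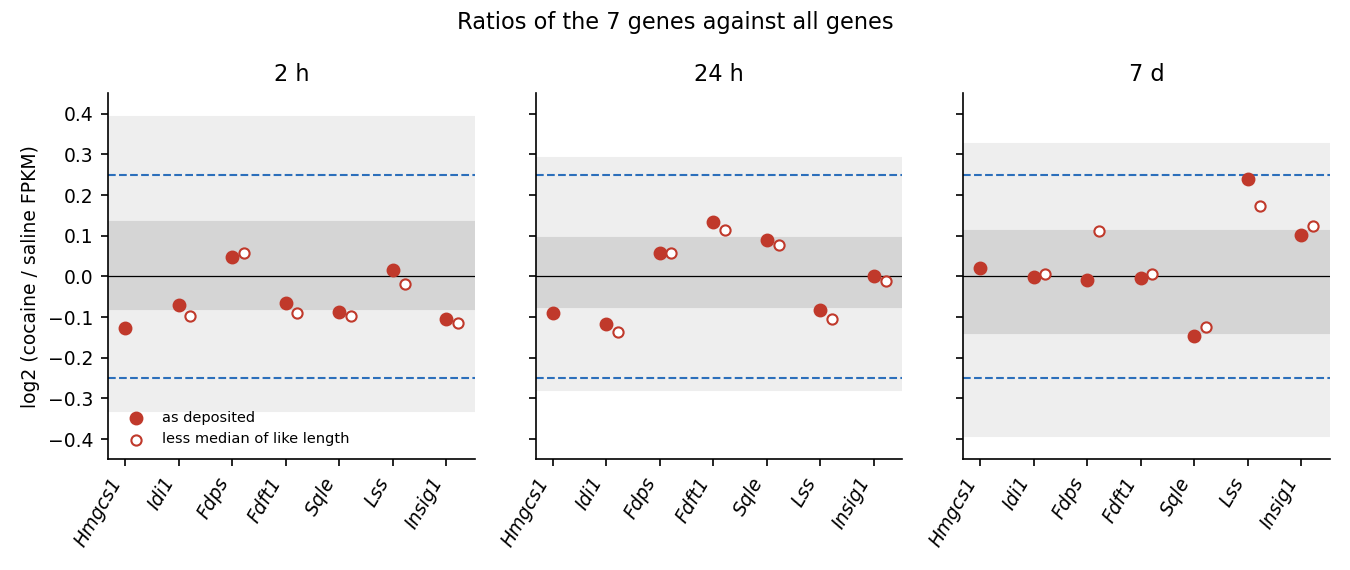
Log2 ratio of cocaine over saline (vertical axis, pooled FPKM plus 0.1) of each of the 7 genes (horizontal axis) at 2 h, 24 h and 7 d; filled points are as deposited, open points have the median of genes of like length subtracted, the dark and light bands hold the middle 50% and 90% of all expressed genes, and dashed lines mark 0.25 on either side. All points lie between the dashed lines, with Lss at 7 d (0.24) nearest to them.

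With no error to test against, a gene was counted as past a fold rule where its log2 ratio was at least 0.25 in size, that is 1.19-fold in either direction. None of the 7 genes passed it at any time point. The rule was passed by 19.1% of all expressed genes at 2 h (11.4% higher and 7.76% lower in cocaine), 12.7% at 24 h (6.71% higher and 5.96% lower) and 21.8% at 7 d (9.04% higher and 12.8% lower). Among genes with a mean of at least 5 FPKM, a level that 6 of the 7 genes exceed, the shares were 11.8%, 7.32% and 17.3%. With so few genes, 0 of 7 lies near these shares and is not in itself a result about them. At a rule of 0.15, which 37.5%, 28.2% and 43.2% of expressed genes passed at 2 h, 24 h and 7 d, only Lss at 7 d was past it. At a rule of 0.5 the shares were 5.30%, 4.0% and 4.76%, and none of the 7 was past it.

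The size of the ratios can also be read by rank. The median absolute log2 ratio of the 7 genes was 0.07, 0.09 and 0.02 in time order, and that of all expressed genes was 0.11, 0.09 and 0.13. The middle 50% of all genes held 4 of the 7 at 2 h, 3 at 24 h and 5 at 7 d. Lss at 7 d had a larger ratio in size than 76.3% of genes, Fdft1 at 24 h than 67.4%, Idi1 at 24 h than 62.4%, Hmgcs1 at 2 h than 56.0% and Sqle at 7 d than 55.9%. Fdps never ranked above 35.5%.

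The 3 saline groups give another scale, since they differ in the time after the last injection, in mice, and in the table in which they were normalized, but not in drug. Between the lowest and the highest saline group, Lss differed by 0.24 on the log2 scale, Insig1 by 0.22, Idi1 by 0.18, Fdps by 0.15, Fdft1 by 0.11, Hmgcs1 by 0.08 and Sqle by 0.07. For 3 of the 7 genes (Idi1, Fdps and Insig1) that range was larger than any of their 3 differences between cocaine and saline. The exceptions were Lss, and Hmgcs1, Fdft1 and Sqle, whose largest ratios were 0.13, 0.13 and 0.15 in size. After the tables were put on a common scale (factors of 0.980 to 1.017), the count was also 3 of 7. The saline ranges were taken without the added 0.1 FPKM. The Lss comparison is nearly a tie. Its saline range was 0.240, and its 7 d ratio was 0.245 without the added 0.1 and 0.239 with it. The median saline range over 12760 genes was 0.21.

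Few of the genes kept 1 direction over time. Idi1 alone was below saline at all 3 time points, at -0.07, -0.12 and -0.002, the last of which turned positive when the median of all genes was subtracted, and 33.4% of 12843 genes had the same sign at all 3. From 24 h to 7 d, the log2 ratio of Lss differed by 0.32, from below to above saline, more than for 81.5% of genes. Sqle differed by -0.24 over the same interval, more in size than 69.2% of genes, and in the opposite direction. Between 2 h and 24 h the largest differences were those of Fdft1 (0.20) and Sqle (0.18), larger than for 67.0% and 63.0% of genes. Between 2 h and 7 d they were those of Lss (0.22) and Insig1 (0.21). Each time point has its own saline group, so these ratios share no library.

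Transcript length moved with the ratios of all genes, chiefly at 7 d. In 20 groups of genes ordered by the length of their transcript, the median log2 ratio at 7 d went from -0.23 in the shortest group to 0.14 in the longest, against 0.01 and 0.09 at 2 h and -0.03 and 0.04 at 24 h. The 6 genes with a length (Hmgcs1 had none) were between 1233 nt (Fdps) and 4667 nt (Lss). With the median of genes of like length subtracted, Lss at 7 d was at 0.17, Insig1 at 0.13 and Sqle at -0.12. Fdps at 7 d, the shortest of them, went from -0.01 to 0.11. The median over these 6 genes was then -0.09 at 2 h, 0.02 at 24 h and 0.06 at 7 d, with 1, 3 and 5 of the 6 above saline. None was past the fold rule. The values that changed sign were Lss at 2 h, Insig1 at 24 h and Idi1, Fdps and Fdft1 at 7 d, and the same 5 did so when the median of all genes was subtracted instead. The part of transcript length in these ratios was not tested.

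**Figure D3:**
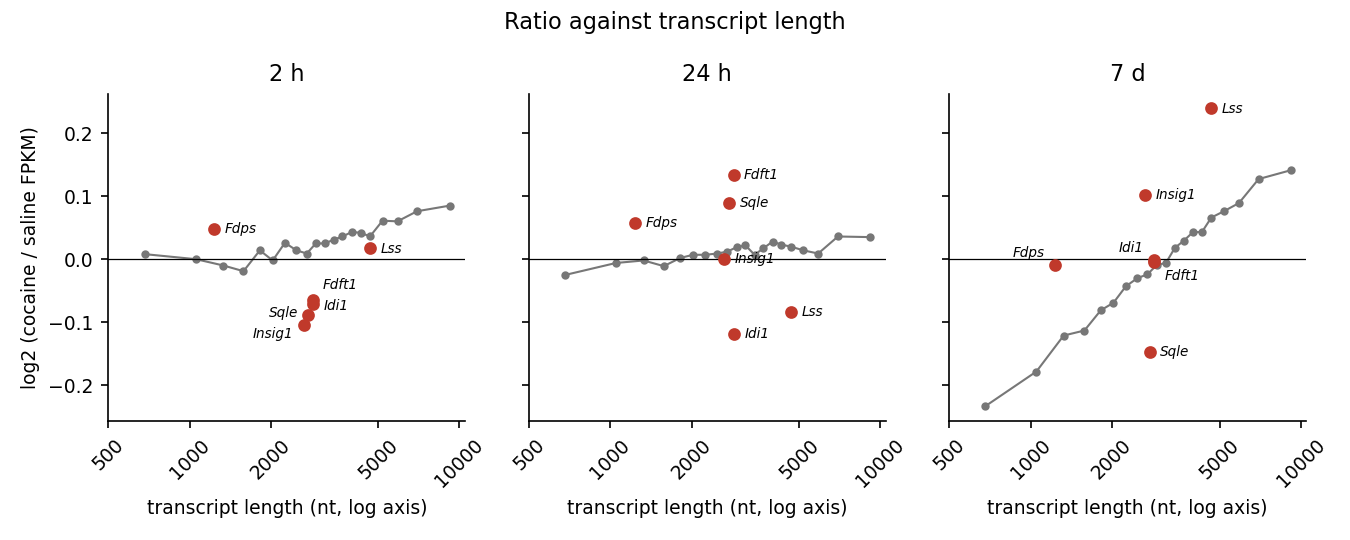
Log2 ratio of cocaine over saline (vertical axis) against transcript length in nt (horizontal axis, log scale) at 2 h, 24 h and 7 d; the grey line joins the medians of 20 groups of expressed genes and the red points are the 6 genes with a length. The line climbs from -0.23 to 0.14 at 7 d, where Lss lies above it and Sqle below it.

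The rest of the pathway was read from lists of 57 other genes, of which 52 were expressed. Past the fold rule were 4 higher and 1 lower at 2 h, 1 higher and 2 lower at 24 h, and 9 higher and 1 lower at 7 d. On the higher side these are 7.7%, 1.9% and 17.3% of the 52, against 11.4%, 6.71% and 9.04% of all genes. On the lower side they are 1.9%, 3.8% and 1.9%, against 7.76%, 5.96% and 12.8%. The 7 d share on the higher side was above that of all genes and the other shares were below. With the length trend taken out, the count at 7 d was 4 higher, with Srebf1, Fads2 and Mvk among them, and 1 lower (Pdss2). Mvd, Tm7sf2 and Fntb were not analysed here, and Acacb and Mbtps2 were below 1 FPKM.

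In the mevalonate arm, 7 of 8 genes were measured, the 7 genes being Hmgcs1, Idi1, Fdps and 4 others, and none was past the rule at any time. Acat2, which makes acetoacetyl-CoA, had 14.5 (saline) and 13.9 FPKM (cocaine) at 2 h, for a log2 ratio of -0.07. At 24 h it had 14.8 and 16.1 FPKM (0.12), and at 7 d 15.6 and 15.3 FPKM (-0.03). Mvk, the mevalonate kinase, came nearest to the rule, at 0.24 at 2 h and 0.24 at 7 d, and passed it at both with the length trend taken out (0.26 and 0.35). The median of the arm was -0.06, 0.06 and -0.002.

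In the sterol arm, 12 of 13 genes were measured, Fdft1, Sqle and Lss among them, and 3 others were past the rule once each. These are 8.3% on the higher side at 2 h, and 8.3% on each side at 7 d. The shares of all genes were 11.4% (higher, 2 h), 9.04% (higher, 7 d) and 12.8% (lower, 7 d). Ebp, a sterol isomerase late in the arm, had 9.65 (saline) and 13.5 FPKM (cocaine) at 2 h, for a log2 ratio of 0.48. Its levels were 9.47 and 9.65 FPKM at 24 h, then 9.67 and 9.35 FPKM at 7 d. The cocaine group at 2 h stood apart from the other 5 groups. At 7 d, Msmo1, the sterol C4 methyl oxidase, was at 58.8 and 48.5 FPKM (-0.28) and Lbr, a sterol reductase that also anchors chromatin at the nuclear lamina, at 1.97 and 2.39 (0.26). With the length trend taken out these were -0.21 and 0.23, inside the rule. The median of the arm was 0.01, -0.02 and 0.01.

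Among the 6 expressed genes of sterol sensing, Insig1 included, all 6 were above saline at 7 d, with a median log2 ratio of 0.11, while 47.7% of all genes were above saline. At 2 h and at 24 h, 5 of the 6 were above saline, with medians of 0.10 and 0.02, against 56.6% and 53.1% of all genes. Srebf1, whose product drives mainly fatty acid genes, had 8.33 (saline) and 10.6 FPKM (cocaine), a log2 ratio of 0.35 at that time, and Scap had 12.4 and 15.1 FPKM (0.29). Srebf2, which encodes SREBP2, had log2 ratios of 0.08, 0.03 and 0.12 in time order. None of the 6 was past the rule at 2 h or 24 h, and 33.3% were past it on the higher side at 7 d, against 9.04% of all genes. With the length trend taken out, Srebf1 (0.31) stayed past the rule at 7 d, Scap (0.24) did not, and Mbtps1, a protease that frees SREBP, was below saline (-0.04).

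Of the 10 genes of uptake and transport, 1 was past the rule on the lower side at 2 h and 1 on the higher side at 7 d. These are 10.0% each, against 7.76% and 9.04% of all genes on the same sides. The other 8, of which some are named here, were inside the rule at every time point. Sort1, a sorting receptor of the Golgi and endosomes, was the most abundant, between 72.6 and 91.0 FPKM, with log2 ratios of 0.13, 0.04 and 0.12 in time order. Npc1, which moves cholesterol out of lysosomes, had 10.1 (saline) and 11.4 FPKM (cocaine) at 2 h, for a log2 ratio of 0.18, and -0.09 and 0.13 at the later times. Stard4, a cytosolic sterol carrier, had the lowest ratio of the 8 at 2 h (-0.15). Lrp1, which takes up apoE lipoproteins, was between 54.3 and 69.0 FPKM with log2 ratios of 0.08, 0.03 and -0.01. The median over all 10 was 0.11, 0.00 and 0.02.

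Of the 9 genes of efflux, storage and breakdown, 3 were past the rule on the higher side at 2 h. This is 33.3%, against 11.4% of all genes. At 24 h, 11.1% were past it on each side, against 6.71% (higher) and 5.96% (lower) of all genes. At 7 d, 22.2% were past it on the higher side, against 9.04% of all genes. Abca1, the pump that loads cholesterol onto apolipoproteins, had 3.75 (saline) and 4.92 FPKM (cocaine), for a log2 ratio of 0.38. Soat1, which esterifies cholesterol for storage, was at 3.28 and 4.19 FPKM (0.34), and Mylip, a ubiquitin ligase induced by sterols, at 3.91 and 5.36 (0.44). At 24 h the direction of Soat1 was opposite, at 5.32 and 4.15 FPKM (-0.35), Abca1 was at -0.19, and Nr1h3, the sterol-sensing receptor LXR alpha, was at 1.17 and 1.73 FPKM (0.52). At 7 d Abca1 (2.06 and 2.71 FPKM, 0.38) and Soat1 (3.08 and 3.85, 0.31) were again higher, and both were inside the rule with the length trend taken out (0.24 each). The median of the list was 0.19, 0.01 and 0.16 in time order. Saline levels of both differed over the tables by more than these ratios, 2.06 to 4.12 FPKM for Abca1 and 3.08 to 5.32 for Soat1.

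Of 9 fatty acid genes, none was past the rule at 2 h and Scd1, the stearoyl-CoA desaturase, was lower at 24 h (45.6 and 38.3 FPKM, -0.25). At 7 d, Scd1 (39.9 and 48.0 FPKM, 0.27), Fads2, a fatty acid desaturase (40.5 and 48.5, 0.26), and Acaca, the acetyl-CoA carboxylase (6.6 and 7.92, 0.26), were higher. These are 11.1% on the lower side at 24 h and 33.3% on the higher side at 7 d, against 5.96% and 9.04% of all genes. With the length trend taken out Fads2 was at 0.37, Scd1 at 0.20 and Acaca at 0.12. None of the 6 genes of the isoprenoid branches, which leave the pathway at farnesyl diphosphate, was past the rule, although Pdss2, of ubiquinone synthesis, was at -0.26 at 7 d with the length trend taken out. The medians were 0.09, -0.10 and 0.14 for fatty acid genes and 0.02, 0.03 and -0.11 for the isoprenoid branches at the 3 times.

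**Figure D4:**
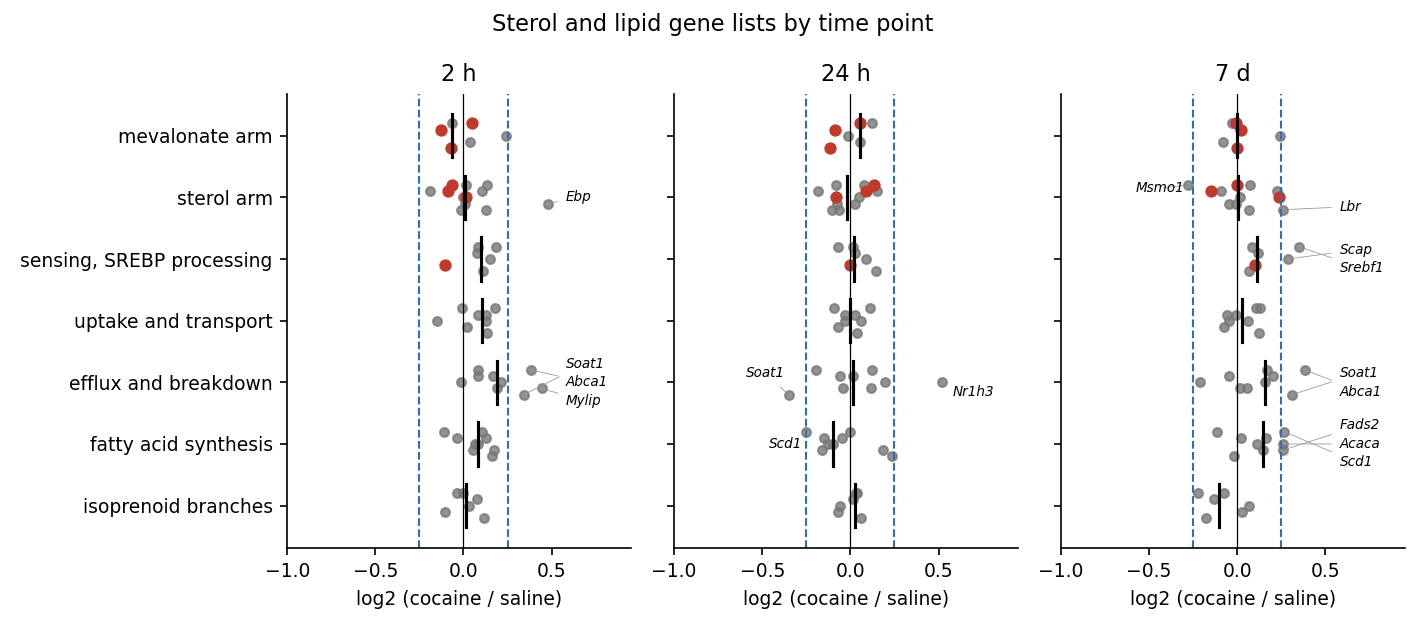
Log2 ratio of cocaine over saline (horizontal axis) of the expressed genes of 7 sterol and lipid lists at 2 h, 24 h and 7 d, without 3 genes not reported here; red points are the 7 genes described here, grey points the others, black bars medians over each whole list, and dashed lines mark 0.25 on either side. The red points lie inside the dashed lines in every panel, and the named grey points are those past them.

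Ratios of markers of the cells that make sterols are given without an error, like those of the 7 genes. All 8 astrocyte markers were above saline at 2 h, none at 24 h and 7 at 7 d, with medians of 0.16, -0.16 and 0.21 and a summed FPKM of 678 in saline and 760 in cocaine, 778 and 697, and 675 and 778. Of 10 oligodendrocyte markers, 3, 0 and 6 were above saline, with medians of -0.05, -0.21 and 0.05 and summed FPKM of 726 and 688, 867 and 728, and 841 and 837. Past the fold rule were 1 (higher), 2 (lower) and 4 (higher) of the astrocyte markers in time order. Of the oligodendrocyte markers 1, 3 and 1 were past it, all lower. The shares of all expressed genes past it in either direction were 19.1%, 12.7% and 21.8%. At 24 h, where both lists had medians below saline, Fdft1, Sqle and Fdps were above saline and Idi1, Hmgcs1 and Lss below. The part of these cells in the ratios of the 7 genes was not tested.

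The other marker lists are given for the dissection. Slc17a7, the vesicular glutamate transporter of cortical excitatory neurons, was between 466 and 532 FPKM in all groups, and Drd2, which marks striatal neurons, at most 0.234. Median log2 ratios at 2 h, 24 h and 7 d were 0.07, 0.08 and 0.07 for excitatory neurons, -0.03, 0.01 and -0.001 for inhibitory neurons, 0.08, -0.08 and 0.01 for microglia, 0.13, -0.04 and 0.16 for endothelial cells and 0.24, 0.08 and 0.12 for the 3 expressed striatal markers. Red blood cell genes had medians of 0.64, 0.08 and 0.25. At 2 h, 5 of 5 were past the rule on the higher side, against 11.4% of all genes (summed FPKM 323 in saline and 504 in cocaine). Of 5 choroid plexus markers, 2 averaged at least 1 FPKM, and their ratios differed. Ttr had 0.284 (saline) and 6.54 FPKM (cocaine) at 7 d, with log2 ratios of -1.83, -0.66 and 4.11 in time order, whereas Kcnj13 was at 0.30, 0.07 and 0.08. Of the 3 low markers at 7 d, Kl was at 0.41, Folr1 at -0.98 and Clic6 at -0.33, each under 1 FPKM in both groups.

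Genes whose ratios were closest to the median of the 7 genes were sought among 8293 genes with at least 5 FPKM at every time point. The nearest by Euclidean distance over the 3 log2 ratios were Dhx32 (0.01), Ppp2ca (0.014), Ckap5 (0.015), Fam21 (0.017) and Mgea5 (0.019). The 7 genes themselves lay farther from their own median, from 0.108 (Hmgcs1) to 0.27 (Lss), and 5331 genes, 64.3%, lay within the distance of Lss.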

How the data were processed

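RNA of the mouse PFC was sequenced by the study in 12 libraries. Per the labels, the submitters' processing notes name CASAVA 1.8.2, Trimmomatic 0.32, TopHat2 2.0.12, Cufflinks 2.2.1 with Cuffdiff, and GRCm38/mm10, whereas the methods of the study name cutadapt and mm9; the listed loci of the 7 genes overlap the RefSeq genes of GRCm38.p6. The deposited tables give FPKM values that the authors pooled over the 2 libraries of a group, 1 Cuffdiff run per time point. They also hold the authors' own fold changes, test statistics, p-values and calls, which were not used. The column of saline was settled from the headings of the study's supplementary tables: within 5% its values matched the first column for 412 of 456, 13 of 14 and 506 of 530 genes at 2 h, 24 h and 7 d, and the other column for 0.

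The log2 ratio was that of cocaine FPKM plus 0.1 over saline FPKM plus 0.1. The longest locus stood for a gene name, and the background was formed by genes that averaged at least 1 FPKM over both groups. No test was run, since there is 1 pooled value per group. Transcript lengths were found for 86.8%, 86.1% and 86.2% of genes, and the medians of 20 length groups were subtracted as an alternative. Other alternatives were a pseudocount of 1 or none, subtraction of the median of all genes, fold rules of 0.15 and 0.5, no filter or a filter of 5 FPKM, the locus of highest FPKM, and loci of status OK. The members and all lists were chosen with earlier results of these data known. Named were the 7 genes, list genes past the fold rule at any time, and the 5 genes nearest in pattern; Acat2, Mvk, Srebf2, Sort1, Npc1, Stard4, Lrp1, Pdss2, Mbtps1 and the single markers were named after their values were seen. Counts and medians are over whole lists, of which 3 genes are not reported here by name. Promoters came from RefSeq (GRCm38.p6) and matched 4 of the 7 genes. Tools were numpy 2.4.6, pandas 2.3.3 and matplotlib 3.10.9 under Python 3.11.15, and the steps were tested on simulated data.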

Additional observations from a re-analysis of the deposited data

How the results depend on the processing

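No paired analysis was possible because the tables hold 1 pooled value per group, and no library could be left out for the same reason. Depth is not known from FPKM. The ratios of the 7 genes moved by more than 0.1 on the log2 scale in 1 case, Fdps at 7 d with the length trend subtracted (0.11 against -0.01); their largest ratio in size was between 0.17 and 0.25 under each alternative that recomputes them, and no gene past the fold rule changed direction. None of the 7 was past 0.25 under any of these. The alternative of loci with status OK was chosen after seeing the data and moved nothing past these limits.

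A pseudocount of 1 gave 8.29% of all genes past the rule at 24 h and 1 other pathway gene lower. Subtracting the length trend gave 12.9% and 4 other genes higher at 7 d. With a rule of 0.15, the shares at 2 h, 24 h and 7 d were 37.5%, 28.2% and 43.2%, other genes higher 13, 4 and 15 and lower 2, 6 and 5, and 1 of the 7 genes was past it at 7 d (Lss). With a rule of 0.5, the shares were 5.3%, 4% and 4.76%, with 0 other genes higher at 2 h and 7 d and 0 lower at 24 h and 7 d. Without a filter, 3 others were higher at 24 h. With a filter of 5 FPKM, the shares were 11.8% at 2 h and 7.32% at 24 h, other genes higher 1, 0 and 5, and lower 0 at 2 h and 1 at 24 h. A stricter rule or filter leaves fewer genes by construction; for the pseudocount and length the cause was not tested.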
